A study of Mus musculus with 2 samples.

Results

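HDAC4 ChIP-seq peaks at the nuclear genes Sdha, Atp5c1, Glul and Adss, which encode enzymes of mitochondrial energy and nitrogen metabolism, are described here in proliferating C2C12 cells. C2C12 is an immortalized mouse myoblast line derived from the C3H strain. The cells were cultured for 24 hours in growth medium (GM), which contains serum and glutamine, and no other treatment is given. An antibody to HDAC4 was used on cross-linked chromatin, and 1 ChIP library and 1 input library (no antibody) were sequenced, with no replicates. The authors' table lists 229 places, called peaks, where the ChIP signal exceeded the input at a q-value cutoff of 0.01. The members were selected on this table: they are the 4 of 229 peaks that the authors' annotation names after Sdha, Atp5c1, Glul or Adss, so a signal above input is what chose them, and pileup, fold and q are described without a test. The 8 peaks in the mitochondrial genome itself are not among them. A list of peaks holds no measure of expression, so neither the identity of the cells nor the activity of these genes could be checked. The label that joins the 4 peaks rests on what the encoded enzymes do.

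HDAC4 is a class IIa histone deacetylase that does not bind DNA on its own but is brought to genes by transcription factors, of which the MEF2 family is the best known in muscle. Mitochondria make ATP from the oxidation of fuels: the tricarboxylic acid (TCA) cycle feeds electrons into the respiratory chain, whose proton gradient drives the ATP synthase. Most proteins of this system are encoded in the nucleus, and nuclear respiratory factor 1 (NRF1) is a known activator of many of their genes. Sdha encodes the flavoprotein subunit of succinate dehydrogenase (complex II), the only enzyme shared by the TCA cycle and the respiratory chain. Atp5c1 encodes the gamma subunit of the ATP synthase, its rotating central stalk. Glul encodes glutamine synthetase, which joins ammonia to glutamate. Adss encodes adenylosuccinate synthetase, which uses the nitrogen of aspartate in the step from IMP towards AMP. Its product is known as the non-muscle isozyme, and that of Adssl1 as the muscle isozyme.

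All 4 peaks lay at or near the 5′ end of their gene, and these stretches are shown because they hold most of the motif matches near the summits and, except at Glul, a start site of the gene. They are read from mm10 (GRCm38) and printed 5′ to 3′ on the strand of the named gene. Capitals mark matches to NRF1 (GCGCANGCG) and to the GC box bound by SP and KLF factors (GGGCGG), each on either strand. At most 30 bases of any 5′ UTR are included at an end, so the stretches are shorter than the peaks.
Sdha, chr13:74350251-74350338, minus strand: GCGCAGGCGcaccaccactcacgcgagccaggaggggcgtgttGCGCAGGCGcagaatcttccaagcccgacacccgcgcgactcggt
Atp5c1, upstream flank, chr2:10080481-10080590, minus strand: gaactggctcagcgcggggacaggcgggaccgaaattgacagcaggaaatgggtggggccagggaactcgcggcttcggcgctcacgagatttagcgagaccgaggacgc
Atp5c1, NRF1 match, chr2:10080431-10080459, minus strand: ctgagctcccGCGCACGCGcactgagtcc
Glul, chr1:153900362-153900562, plus strand: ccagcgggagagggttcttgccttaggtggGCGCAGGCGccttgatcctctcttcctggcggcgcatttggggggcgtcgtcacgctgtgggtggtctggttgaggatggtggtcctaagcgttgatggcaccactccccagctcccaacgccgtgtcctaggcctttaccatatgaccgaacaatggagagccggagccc
Adss, chr1:177796482-177796628, minus strand: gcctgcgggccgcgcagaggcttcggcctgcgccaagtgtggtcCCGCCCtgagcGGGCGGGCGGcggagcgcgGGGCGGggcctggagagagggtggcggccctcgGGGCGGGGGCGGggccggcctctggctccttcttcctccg

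The peak at Sdha covered chr13:74350232-74350528 (297 bp) and was classed by the authors as upstream of both Ccdc127 and Sdha. Sdha (ENSMUSG00000021577.14, chr13:74322254-74350280) is on the minus strand, and Ccdc127, which encodes a coiled-coil protein, runs the other way. Only 28 bp separate the 5′ ends of the 2 genes. The summit, the base of highest pileup, was placed on the 5′ end of Ccdc127 and 29 bp upstream of that of Sdha. Summits of the members rest on 8 to 12 tags extended to 297 bp, and how closely they mark a site was not tested. The peak took in 49 bp of exon 1 of Sdha and all 100 bp of exon 1 of the longest Ccdc127 transcript. It therefore lay over both start sites, and the part of each gene in the signal cannot be told apart.

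The peak at Atp5c1 covered chr2:10080294-10080590 (297 bp) and was classed as 5′ UTR. Atp5c1 (ENSMUSG00000025781.14, chr2:10056016-10080510) is also on the minus strand, and its 5′ end also faces another gene, Kin, which encodes a nuclear protein that binds DNA and RNA. The summit lay 46 bp inside Atp5c1-203, the transcript that starts farthest upstream, and 20 bp upstream of the start site of Atp5c1-202. Of 7 protein-coding transcripts of Atp5c1, 4 started within the peak. The peak held the whole of exon 1 of Atp5c1-203, that is 107 bp of 5′ UTR and 56 bp of coding sequence. The start site of the protein-coding Kin transcript was 160 bp from the summit and outside the peak, with 113 bp between it and that of Atp5c1-203.

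The peak at Glul covered chr1:153900247-153900578 (332 bp) and was the only intronic member. Glul (ENSMUSG00000026473.15, chr1:153899944-153909723) is on the plus strand, and the summit lay 518 bp downstream of the start site of its transcript in the basic set of GENCODE, in intron 1. The nearest start site was that of a shorter transcript, Glul-202, which is not in that set, 144 bp further downstream. No start site of a protein-coding transcript lay within the peak. On the minus strand Teddm2, which encodes a transmembrane protein, starts 254 bp from the summit, so that the 2 genes overlap by 265 bp at their 5′ ends. The peaks at the other members spanned a start site of their gene, and the Glul peak did not. It lay between the start sites of Teddm2 and Glul-202, and the part of each gene in the signal cannot be told apart.

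The peak at Adss covered chr1:177796331-177796628 (298 bp) and was classed as 5′ UTR. Adss (ENSMUSG00000015961.8, chr1:177762962-177796511) is on the minus strand. The summit lay 7 bp inside its only protein-coding transcript. The peak held 117 bp of 5′ UTR and 64 bp of coding sequence of exon 1. No protein-coding gene started on the opposite strand within 1 kb.

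**Figure D1:**
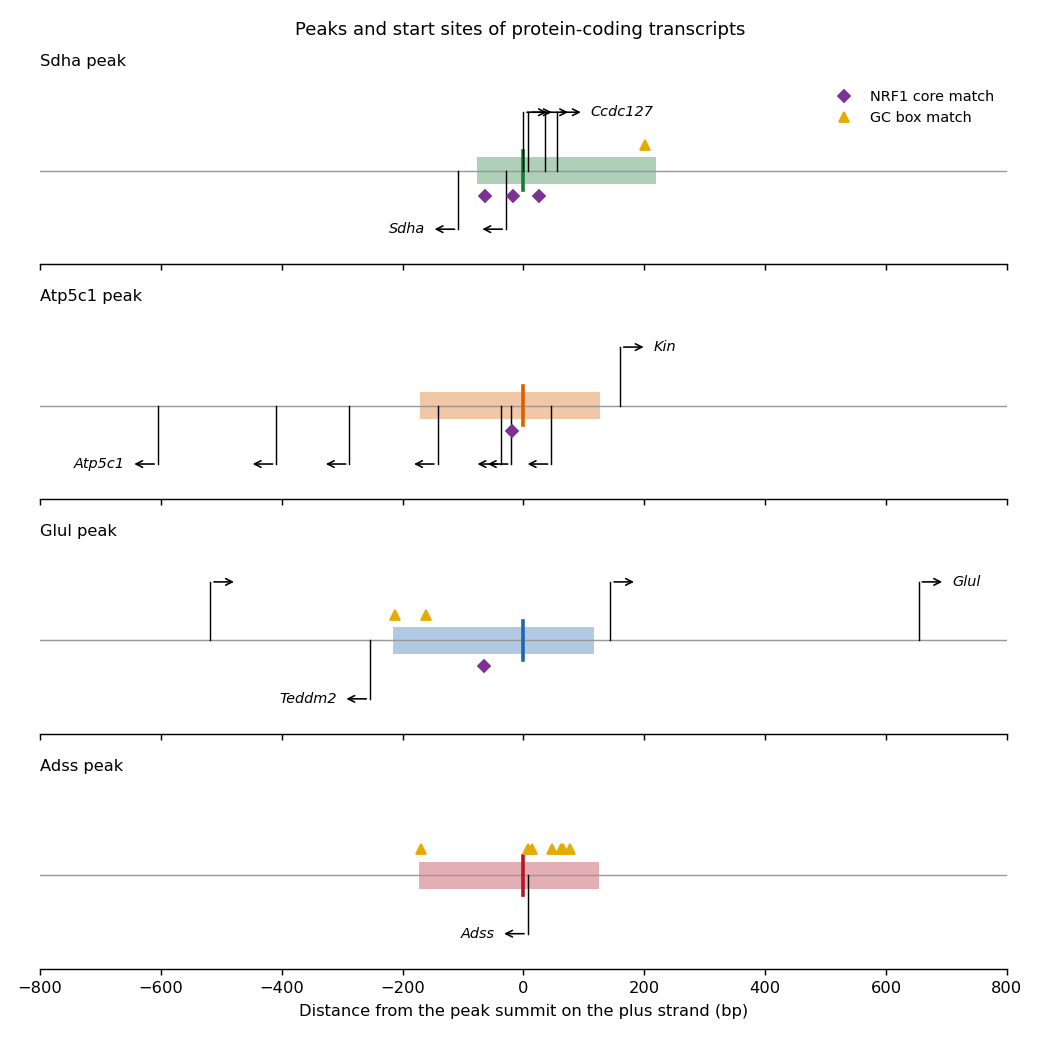
Position of each peak (coloured bar, with a vertical line at the summit) against start sites of protein-coding transcripts (arrows, plus strand above and minus strand below the line), in bp from the summit on the plus strand. Diamonds and triangles mark NRF1 and GC box matches within the peak. The Sdha, Atp5c1 and Adss peaks span a start site of their gene, and the Glul peak lies between the 5′ end of the gene, 518 bp to the left, and the start site of Glul-202, 144 bp to the right.

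The summits of 4 of 4 members were within 1 kb of a protein-coding start site, which also holds for 75.5% (142 of 188) of the peaks of ordinary pileup. These 188 peaks lie on chromosomes 1 to 19 and X and have a pileup of up to 5 times the median of all 229 peaks, which sets aside the mitochondrial genome, sequences without a chromosome and the peaks of very high pileup. All 4 members are among them. Start sites on both strands within 1 kb of the summit were found at 3 of 4 members (Sdha, Atp5c1 and Glul), against 10.1% (19 of 188) of the peaks of ordinary pileup. These 19 include the 3 members, and by definition all lie among the 142 peaks near a start site, as the members do. Across the genome, 11.4% of 21755 protein-coding genes had an opposite start site within 1 kb of their 5′ end. The annotation that places genes at peaks was part of the choice of members, and with 4 peaks this difference was not tested.

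The pileup counts the extended ChIP tags that cover the summit. It was 11 tags at Sdha, with an exact Poisson 95% interval from 5.49 to 19.7 tags. Atp5c1 had 10 tags (4.80 to 18.4), Glul 8 tags (3.45 to 15.8) and Adss 12 tags (6.201 to 20.96). The intervals of all 4 members overlap, so their pileups cannot be ordered beyond counting error, which is all that these intervals cover. They make no allowance for the choice of peaks by their signal, nor for the summit being the highest point of the peak. The median of the 188 peaks was 10 tags, with quartiles of 9 and 12. Of those 188 peaks, 45 had a higher pileup than Adss and 149 a higher one than Glul.

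The local input level was worked back from the pileup and the fold in the authors' table. It was 0.755 scaled tags at Sdha and at Atp5c1, and 0.539 at Glul and at Adss. Undoing the scaling of input to ChIP (0.108) gave 7 input tags for Sdha and Atp5c1 and 5 for Glul and Adss, each whole within 0.01. A whole number was also found at 98 of 188 peaks (52.1%). These backgrounds were 2.48 and 1.77 times the genome background of 0.305 scaled tags, and the median of the 188 peaks was 5.52 input tags. Of those peaks 54 had more than 7 input tags and 106 had more than 5, so the members stood at ordinary levels of input.

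The authors' fold enrichment is the pileup plus 1 over the background plus 1. Adss had the highest fold of the members, 8.44, with an interval of 4.68 to 14.3 when the interval of its pileup is carried through a fixed background. Sdha had a fold of 6.84 (3.70 to 11.8), Atp5c1 6.27 (3.30 to 11.1) and Glul 5.85 (2.89 to 10.9). By fold Adss ranked 21 of 229, Sdha 99, Atp5c1 146 and Glul 174. Adss was thus near the top of the list, Sdha at its middle, and Atp5c1 and Glul in its lower part, but the intervals of the folds overlap as well. The −log10 q was 8.56 at Adss, 5.66 at Sdha, 4.58 at Atp5c1 and 3.70 at Glul, in the same order. By q Adss ranked 66 of 229, Sdha 137, Atp5c1 181 and Glul 210. The lowest −log10 q in the whole list, 2.80 at Cecr6, came from 7 tags over 5 input tags, and Glul differed from that peak by 1 tag at the same input. Values of places below the cutoff were not analysed here.

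Pileups this small take few values, and other peaks had exactly the same pileup and fold as a member. Smurf2, a ubiquitin ligase gene, shared those of Adss, and the values of Sdha were shared by the peaks at Hoxa11, Katnbl1 and Spatc1. There were 3 such peaks for Atp5c1 and 4 for Glul. Without the pseudocount of 1 the ratio of pileup to background was 22.2 for Adss, 14.8 for Glul, 14.6 for Sdha and 13.2 for Atp5c1. The fold therefore rests on the pseudocount, and only the place of Adss at the top of the 4 was the same in both orders.

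**Figure D2:**
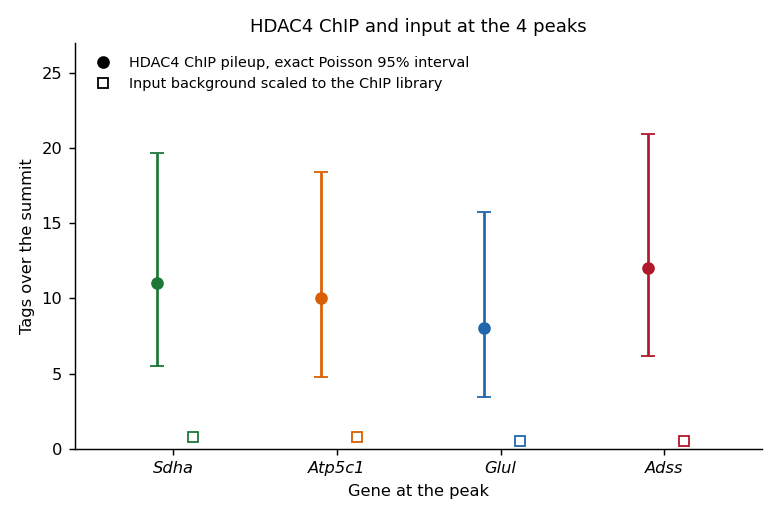
HDAC4 ChIP pileup in tags over the summit (filled circles, with exact Poisson 95% intervals) and recovered input background scaled to the ChIP library (open squares) at each of the 4 peaks, from 1 library each. The pileups run from 8 tags at Glul to 12 at Adss with overlapping intervals, and all backgrounds are below 1 tag.

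**Figure D3:**
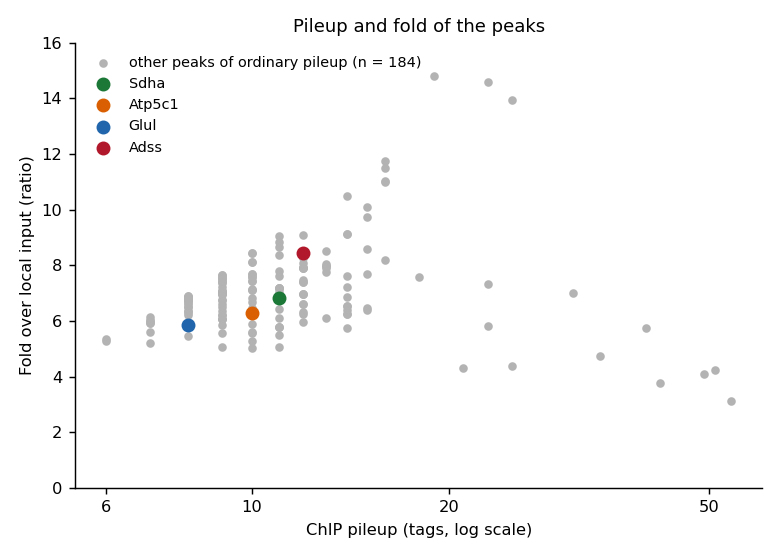
Fold over local input (ratio) against ChIP pileup (tags, log axis) for the 188 peaks of ordinary pileup, with the 4 members coloured. The members lie among the many peaks of 8 to 12 tags, and the peaks of highest fold have more tags.

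The rule that chose the members did not use the sequence of the peaks. The members and motifs were, however, chosen with earlier results of these data known. In 300 bp around the summit, G and C made up 64.3% at Sdha, 68.3% at Atp5c1, 66.3% at Glul and 74.7% at Adss. The median of the 188 peaks was 69.7% and that of 32851 RefSeq promoter windows of the same length was 52.7%. These windows were not filtered by gene type here, whereas the start sites set against the peaks are those of protein-coding transcripts. The ratio of observed to expected CpG dinucleotides was 0.935 at Sdha, 1.07 at Atp5c1, 0.743 at Glul and 0.772 at Adss, against a median of 0.852 for the peaks and 0.384 for the promoters. The members were thus GC-rich and CpG-rich beside promoters in general, as were the other peaks, and only Adss was above the median of the peaks in G and C. All 50-base words of the 4 peaks (248 at Sdha, 248 at Atp5c1, 283 at Glul and 249 at Adss) occurred once on the chromosomes and the mitochondrial genome of GRCm38, so tags of this length can be placed there without a second copy.

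**Figure D4:**
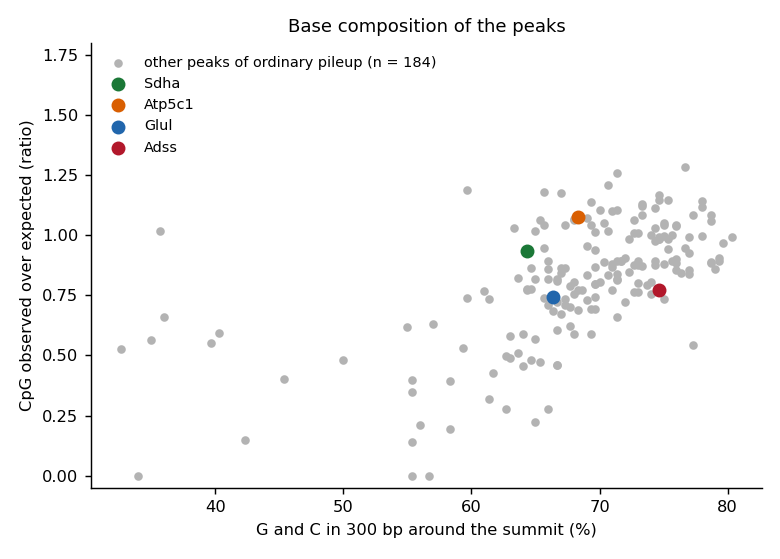
Ratio of observed to expected CpG against the percentage of G and C in 300 bp around the summit for the 188 peaks of ordinary pileup, with the 4 members coloured. All members fall in the dense group of peaks above 60% G and C, and among the 4 Atp5c1 is highest in CpG ratio and Adss in G and C.

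Of 10 motifs searched on both strands in 300 bp around the summit, the NRF1 core GCGCANGCG was found in the most members. The GC box had more matches there in all, and over the whole peaks it was found in as many members as NRF1. Within that window the NRF1 core matched in 3 of 4 members and in 21.3% (40) of the 188 peaks. Of the 142 among these peaks within 1 kb of a start site, 26.1% (37) held it. It stood in 6.25% of the promoter windows, whose median G and C was 52.7%, against 69.7% for the peaks. The Sdha peak held 3 matches, 63, 18 and 25 bp from the summit, none overlapping another. The match 18 bp away lies in the 28 bp between the start sites of Sdha and Ccdc127, and the match 25 bp away is the one that opens the stretch printed for Sdha. At least 3 matches were found in 14 of 188 peaks (7.45%) and in 0.429% of promoters. Atp5c1 had 1 match 19 bp from the summit, across the start site of Atp5c1-202. Glul had 1 match 66 bp from the summit, in intron 1.

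Adss held no NRF1 match but was rich in GC boxes. GGGCGG matched 6 times within its window, and of these matches the nearest was 8 bp from the summit and 2 overlap by 2 bases. The same motif was found at least once in 63.3% of the 188 peaks and in 35.7% of promoters, and 6 times or more in 5 of the 188 peaks and in 1.35% of promoters. Sdha had 1 GC box in its window, outside the peak, and Atp5c1 and Glul had none. Beyond the window, the Sdha peak held 1, 202 bp from its summit, and the Glul peak held 2, 161 and 212 bp away. The Adss peak held 1 more, 169 bp from its summit. The CCAAT box, bound by NF-Y, matched in Sdha only, and stood in 13.3% of the peaks and 37.4% of promoters.

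The other motifs had no match in the windows of the members. These are CCGGAAG for ETS factors such as GABP, found in 6.38% of peaks and 8.86% of promoters, and AAGATGGC for YY1 (4.26% and 2.75%). The E-box CACGTG stood in 9.04% and 7.15%, and the TATA box TATAAA in 2.13% and 13.6%. TGACGTCA for CREB and TCAAGGTCA for the oestrogen-related receptors were in none of the peaks and in 1.79% and 0.423% of promoters. The MEF2 motif was in 1.60% of peaks and 3.19% of promoters. A match of letters is not evidence that a factor binds, and no binding of these factors was measured.

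Other genes of the same pathways were counted from 6 lists. By the authors' gene names, leaving out intergenic peaks, 0.748% (164) of 21911 protein-coding genes had a peak, and 0.936% (205) with a rule that takes any peak overlapping the gene or the 1 kb upstream of it. Of 26 genes of the TCA cycle, its entry from pyruvate and complex II, only Sdha had a peak. The other subunits of complex II, Sdhb, Sdhc and Sdhd, had none, nor did its assembly factors. Of 20 genes of the ATP synthase, only Atp5c1 had a peak, without its partners in the catalytic head such as Atp5a1 and Atp5b. None of 59 nuclear genes of complexes I, III and IV and cytochrome c had a peak.

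Of 33 genes of glutamine and nitrogen metabolism only Glul had a peak. Of 33 purine nucleotide genes only Adss had a peak, without the muscle isozyme Adssl1 or Adsl, which encodes the lyase of the following step. None of 16 regulators of nuclear-encoded mitochondrial genes, among them Nrf1, Ppargc1a and Tfam, had a peak. In all, 4 of 187 listed genes (2.14%) had a peak, and these are the members, which were placed in the lists because they have one. Without them the count was 0 of 183, also with the rule on overlap and within 10 kb of a start site. The share in the lists is therefore no result about these pathways. Each list was touched at a single gene at most, at the depth of this library.

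No member had another peak close by. The nearest other peak was 7407598 bp away for Adss, at Rab3gap2, and between 14839217 and 19538752 bp away for the others. Of the 8 peaks on chromosome 1, Glul and Adss are 2. The spacing of the other peaks was not computed, so these distances cannot be read as a trait of the members. The depth behind each value was low: of 10903000 ChIP tags 1920168 (17.6%) were kept after removal of duplicates, and of 19038793 input tags 17798166 (93.5%) were kept, and whether this difference in duplicates bears on the 4 peaks was not tested. A library from a precipitation with control IgG, or from cells without HDAC4, was not analysed here.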

How the data were processed

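Per the labels, C2C12 chromatin was sequenced as 1 HDAC4 ChIP and 1 input library. Bowtie2, MACS2, CASAVA 1.8.2, cutadapt and mm10 appear in the processing notes of the submitters. Per the file headers, MACS 2.1.0.20150316 kept at most 1 tag per position, extended tags to 297 bp and scaled the input to the ChIP. The authors deposited, for each peak, the pileup signal in tags, the fold enrichment (a ratio) and −log10 q, with −log10 p, which was not used. In another deposited table of the same peaks these numbers were damaged, and it was not used. Which program made the authors' region and gene columns is not given in the sources used here.

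Background was computed as (pileup + 1) / fold − 1. Intervals of pileups are exact Poisson 95% intervals. Start sites and exons came from GENCODE M21 and sequence from GRCm38, the same build as mm10. Promoter windows are RefSeq's (GRCm38.p6), 250 bases before to 50 after each start. No test was made, since the members were chosen by their signal and there are no replicates. The genes named were the 4 members, genes that share their promoters, and listed genes with a peak. The other pathway genes and the genes with values equal to a member were named after the results were seen. The members, lists and motifs were chosen with earlier results of these data known. Alternatives were stricter thresholds, other windows and annotations, and no pseudocount. The word count and motif search were tested on simulated data. Software was matplotlib 3.10.9, numba 0.67.0, scipy 1.17.1, pandas 2.3.3, numpy 2.4.6 and Python 3.11.15.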

Additional observations from a re-analysis of the deposited data

How the results depend on the processing

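With a −log10 q of at least 5, 2 of the 4 members (Sdha and Adss) were left, and the count of listed metabolic genes with a peak was also 2. In the upper part of the list by fold 2 members were left, again Sdha and Adss. Both counts fell by construction, since fewer peaks were taken (170 and 115 of 229). With a fold of at least 5 all 4 stayed. The 4 members lay near a start site with windows of 500 bp, 1 kb and 5 kb and when only the 5′ end of the named gene was taken. The number of genes with a peak was 164 in the main count and between 114 and 205 in the alternatives. Without the pseudocount the folds rose to 22.2, 14.8, 14.6 and 13.2. The percentage of G and C at Sdha was 61.6 in the whole peak and 68.2 in a narrower window around the summit, the largest change among the 4. No paired analysis was possible because there was 1 ChIP and 1 input library, and for the same reason no replicate could be left out. At this depth each pileup of a member rests on 8 to 12 ChIP tags and each background on 5 or 7 input tags.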

Other observations

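Other peaks lay at genes for mitochondrial proteins or nitrogen metabolism that were in none of the lists. They were picked after the gene names of the table had been seen, so their number says nothing about these pathways. Mtch2, which encodes a protein of the mitochondrial outer membrane, had 15 tags (exact Poisson 95% interval 8.40 to 24.7) and a fold of 7.70, and its summit was 1 bp inside a start site. Mrpl55, a gene of the mitochondrial ribosome, had 8 tags and a fold of 6.61, with the summit 46 bp upstream of a start site. The authors' annotation names that peak after another gene as well. Chchd7, for a protein of the mitochondrial intermembrane space, had 9 tags and a fold of 5.55, with start sites on both strands within 1 kb. Tmem65, for a protein of the mitochondrial inner membrane, had 11 tags over 12.8 input tags and a fold of 5.05. Srm, which encodes spermidine synthase of polyamine metabolism, had 10 tags and a fold of 6.45, with the summit 44 bp inside its start site. None of these 5 peaks held the NRF1 core in 300 bp around the summit, which 21.3% of the 188 peaks of ordinary pileup hold, so no difference can be read from so few. GC box matches numbered 6 at Tmem65, as many as at Adss, 5 at Mtch2, 4 at Srm, 3 at Mrpl55 and 0 at Chchd7.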
